A study of Homo sapiens with 32 samples.

Results

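The collagen chain genes encode the polypeptides that wind in threes into collagen triple helices, and they were taken as the protein-coding genes of the GRCh38.p14 RefSeq gene table whose symbol is COL, a number, A and a number. The rule found 44 genes of 20037, and no measured value entered it. Called m6A peaks in these genes came from methylated RNA immunoprecipitation sequencing (MeRIP-seq) of 786-O, a ccRCC line, and RPTEC, hTERT-immortalized renal proximal tubule epithelial cells. Each cell line had the WT parent, the CRISPR knockout clones SETD2KO-1 and SETD2KO-2, and SETD2KO-1R, a clone of SETD2KO-1 that re-expresses full-length tagged SETD2, with 2 immunoprecipitated (IP) libraries per line and no further treatment. The term SETD2-expressing covers WT and SETD2KO-1R. Each knockout line is 1 clone, so SETD2 status cannot be told apart from the clone where only 1 clone is compared. 786-O cells grew in RPMI1640 and RPTEC cells in DMEM/F12 with a growth kit, both with serum, so cell line and medium cannot be told apart.

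Collagens fall into classes by the structure they build. Fibrillar chains such as type I and type V form the banded fibrils of connective tissue, network chains of type IV form the sheet of the basement membrane on which tubule epithelium rests, and smaller classes decorate fibrils, form beaded filaments, anchor the epithelium or span the cell membrane. N6-methyladenosine (m6A) is a modification of adenosines within mRNA, written by the METTL3-METTL14 complex, and in MeRIP-seq an antibody enriches the RNA fragments that carry it. SETD2 is the methyltransferase for H3K36me3 in gene bodies, and the study asked how its loss relates to where m6A lies.

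The 16 lists held 474004 peaks, 19249 to 39670 per library, and 1614 of them overlapped a collagen gene by at least 1 bp. The lists give no read counts, so the depth behind a peak is unknown, and a peak number is not a methylation level. A gene without a peak may be unmethylated or may be too little transcribed for a call, and with no RNA level here the alternatives cannot be told apart. In bulk RNA fewer expressing cells and less RNA per cell cannot be told apart either. The lists also carry no strand: 275 of the 1614 peaks (17.0%) overlapped another gene as well. The labels do not say that the 2 libraries of a line came from separate cultures, so every p below measures the spread between libraries, which may be technical. In RPTEC the SETD2 gene itself held 6, 4, 4 and 5 peaks in SETD2KO, fewer than the 7 and 10 in WT and the 11 and 10 in SETD2KO-1R. In 786-O it held 5, 10, 5 and 4 in SETD2KO, which overlapped the 8 and 10 in WT and the 7 and 9 in SETD2KO-1R. A peak in the gene does not check the knockout. The kidney epithelial markers PAX8, PAX2, CDH6, KRT8 and KRT18 each had a peak in all 16 libraries. The proximal tubule markers LRP2, SLC34A1 and AQP1 had none, and CUBN had a peak in 1 786-O library, so none of the 4 was called in RPTEC.

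Of the 44 collagen genes, 26 had a peak in at least 1 library (59.1%, against 67.0% of all protein-coding genes), and 9 had a peak in all 16 (20.5%, against 23.1%). Collagen genes are long, with a median body of 144.672 kb against 24.115 kb for all protein-coding genes, and their part in these shares was not tested. The 18 genes without any peak included the type I chain COL1A2, the type II and type III chains COL2A1 and COL3A1, and the type IV chain COL4A6. The others were COL5A3, COL6A5, COL6A6, COL8A2, COL9A1, COL9A3, COL11A1, COL14A1, COL15A1, COL19A1, COL20A1, COL21A1, COL24A1 and COL26A1. Peaks were concentrated in few members. COL18A1, COL27A1 and COL4A2 held 807 peaks, 49.8% of the 1619 counted over members, in which a peak over adjoining members counts for each, and the 8 members with most peaks held 84.7%.

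By class, 5 of 6 basement membrane network genes had a peak, with 407 peaks in all. All 4 transmembrane collagens had one but held only 37 peaks, while the single anchoring fibril gene held 175. Peaks were found in 5 of 11 fibrillar genes (365 peaks), 3 of 5 beaded filament genes (230), 4 of 10 fibril-associated genes (37), 2 of 3 short-chain network genes (72) and 1 of 2 multiplexins (293). The 4 fibril-associated genes with a peak had none in 786-O.

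**Figure D1:**
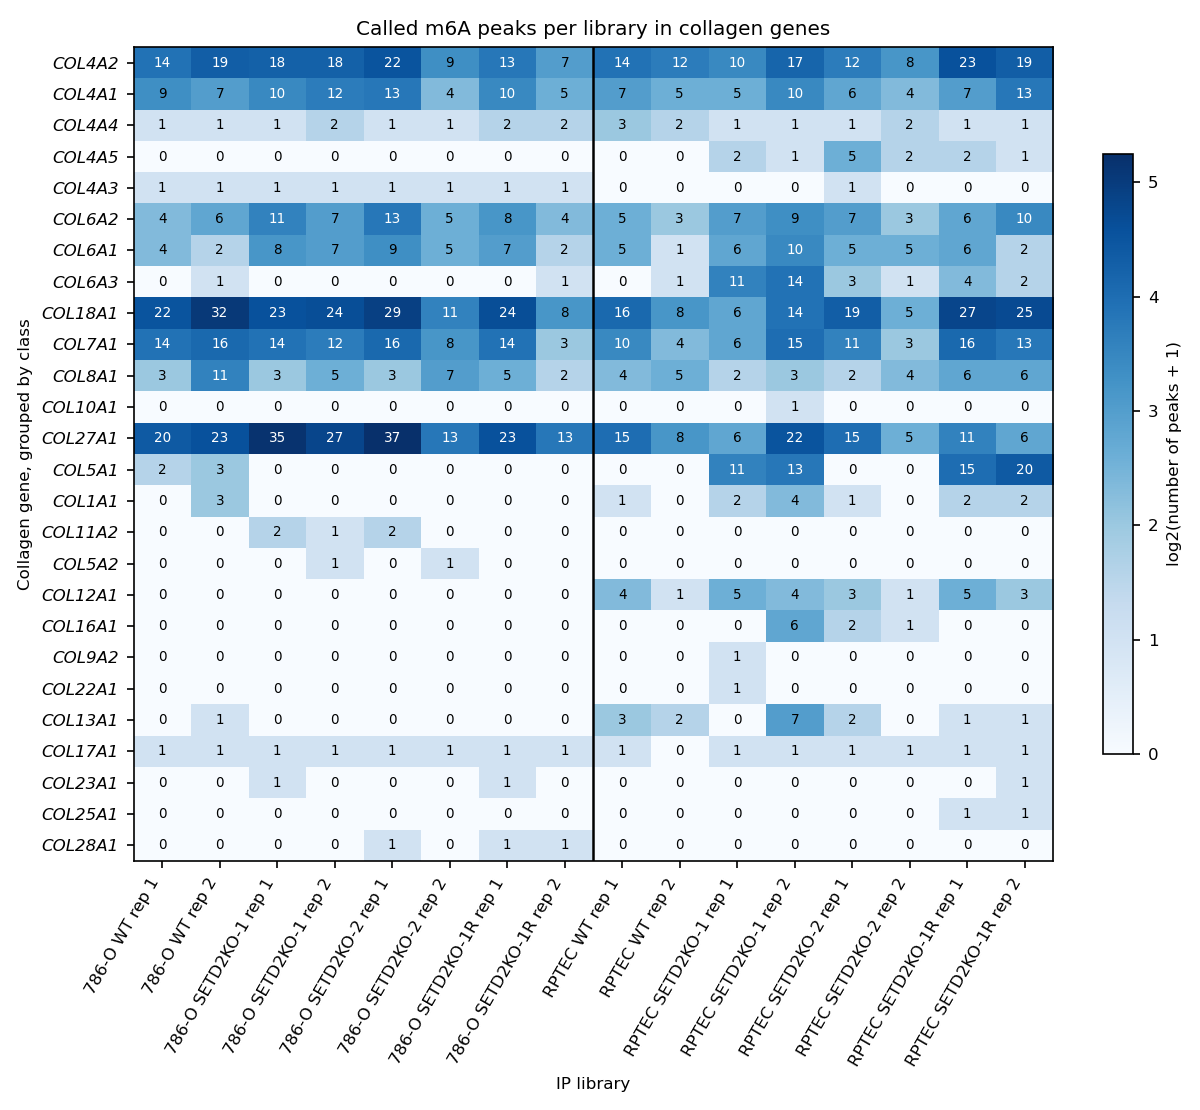
Number of called m6A peaks (printed in each cell) for the 26 collagen genes with a peak, in rows grouped by class, in each of the 16 IP libraries, in columns. Colour gives log2 of the peak number plus 1, and the vertical line parts 786-O from RPTEC. COL4A1, COL4A2, COL6A2, COL7A1, COL18A1 and COL27A1 have at least 3 peaks in every column, COL12A1 is 0 in every 786-O library, and COL5A1 is high in the SETD2KO-1 and SETD2KO-1R columns of RPTEC.

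COL4A1 and COL4A2 encode the 2 chains of the most common type IV collagen, alpha-1 and alpha-2. They lie head to head on chromosome 13 and are transcribed away from each other from one shared promoter region. In 5 libraries a single peak spanned both annotated starts, 110307157 on the minus strand for COL4A1 and 110307284 on the plus strand for COL4A2. These were 786-O SETD2KO-2 replicate 1, 786-O SETD2KO-1R replicate 1, RPTEC SETD2KO-1 replicate 2 and both RPTEC SETD2KO-1R libraries. Ranked by score within its own list from 0 to 100, with 100 the highest, the peak stood at the 69.1th to 93.2th percentile (median 90.4). Without strand it cannot be assigned to either gene. COL18A1 has a pair of annotated starts, and the one at 45455522 on chromosome 21 lay under a peak in 12 libraries, 7 of 786-O and 5 of RPTEC, at a median percentile of 57.1 (range 10.1 to 86.9). The start at 45405165 lay under a peak in 1 library. These windows are printed because they are the collagen starts that peaks covered in at least 4 libraries. From RefSeq GRCh38.p14, they are chr13:110307128-110307407 on the minus strand for COL4A1, chr13:110307034-110307313 on the plus strand for COL4A2 and chr21:45455272-45455551 on the plus strand for COL18A1. Each shows the 250 bases before the start in lower case and the first 30 transcribed bases in capitals, 5′ to 3′.
COL4A1: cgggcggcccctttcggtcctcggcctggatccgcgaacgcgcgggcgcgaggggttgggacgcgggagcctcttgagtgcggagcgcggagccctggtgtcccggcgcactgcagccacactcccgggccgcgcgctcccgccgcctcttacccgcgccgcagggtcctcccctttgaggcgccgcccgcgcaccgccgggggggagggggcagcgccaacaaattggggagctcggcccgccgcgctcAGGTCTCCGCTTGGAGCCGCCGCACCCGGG
COL4A2: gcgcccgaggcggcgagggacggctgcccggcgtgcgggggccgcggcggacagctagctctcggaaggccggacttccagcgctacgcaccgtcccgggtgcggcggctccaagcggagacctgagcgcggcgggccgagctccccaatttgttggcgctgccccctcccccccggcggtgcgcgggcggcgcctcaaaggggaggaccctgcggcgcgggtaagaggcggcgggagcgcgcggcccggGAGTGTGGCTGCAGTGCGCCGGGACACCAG
COL18A1: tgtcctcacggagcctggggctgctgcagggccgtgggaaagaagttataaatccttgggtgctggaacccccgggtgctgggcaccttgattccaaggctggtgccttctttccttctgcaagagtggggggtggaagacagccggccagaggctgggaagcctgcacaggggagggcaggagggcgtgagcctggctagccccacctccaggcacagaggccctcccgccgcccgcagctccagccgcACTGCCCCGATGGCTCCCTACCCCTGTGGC

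The G and C content of the windows was 77.5% for COL4A1, 77.9% for COL4A2 and 66.8% for COL18A1. The letters GGAC, the core of the most frequent m6A sequence context, were searched in the first 50 transcribed bases. They were found for COL4A1 and COL4A2 and not in the COL18A1 window. Over all 35116 windows of promoters given by RefSeq, 18.9% held GGAC in the transcribed strand (17.6% held it in the other strand), and 12 of 44 collagen windows did (7 in the other strand). A gene can have several windows, and a match is a description of the sequence only.

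COL4A1 had 9 and 7 peaks in WT, 10 and 12 in clone SETD2KO-1, 13 and 4 in clone SETD2KO-2, and 10 and 5 in SETD2KO-1R of 786-O. In RPTEC the numbers in the same order were 7 and 5, 5 and 10, 6 and 4, and 7 and 13. COL4A2 had 14 and 19, 18 and 18, 22 and 9, and 13 and 7 peaks in 786-O. The same gene had 14 and 12, 10 and 17, 12 and 8, and 23 and 19 in RPTEC. For both genes the libraries of a line lay farthest apart in 786-O SETD2KO-2, and the ranges of the cell lines overlapped. COL4A1 averaged 8.75 ± 3.20 peaks in 786-O and 7.125 ± 3.0 in RPTEC (SD, n = 8 libraries each), a difference with an exact permutation p of 0.345 and a Benjamini-Hochberg adjusted p of 0.739. For COL4A2 the means were 15.0 ± 5.18 and 14.375 ± 4.98 (exact permutation p = 0.846, adjusted p = 1).

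The other type IV chains, alpha-3 to alpha-6, are known from the mature glomerular and some tubular basement membranes. COL4A3 had 1 peak in each of the 8 786-O libraries, and in RPTEC 1 in SETD2KO-2 replicate 1 and 0 in the other 7. All 9 of these peaks also overlapped the RNA gene MFF-DT, and none lay in COL4A3 alone. COL4A4 had 1 and 1 peaks in WT, 1 and 2 in clone SETD2KO-1, 1 and 1 in clone SETD2KO-2, and 2 and 2 in SETD2KO-1R of 786-O, and 3 and 2, 1 and 1, 1 and 2, and 1 and 1 in RPTEC. Of its 23 peaks 18 also overlapped RHBDD1, and its best peak ranked low, at a mean percentile of 25.1 in 786-O and 36.0 in RPTEC. COL4A5, an X-linked chain named here after its values were seen, had 0 peaks in every 786-O library and in both WT libraries of RPTEC. In RPTEC it had 2 and 1 in clone SETD2KO-1, 5 and 2 in clone SETD2KO-2, and 2 and 1 in SETD2KO-1R. Both SETD2KO clones and SETD2KO-1R thus lay above WT in RPTEC, and the SETD2KO and SETD2-expressing libraries overlapped.

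Type VI collagen is assembled from COL6A1, COL6A2 and, often, COL6A3 into beaded filaments around cells. COL6A1 had 4 and 2 peaks in WT, 8 and 7 in clone SETD2KO-1, 9 and 5 in clone SETD2KO-2, and 7 and 2 in SETD2KO-1R of 786-O. In RPTEC it had 5 and 1, 6 and 10, 5 and 5, and 6 and 2. Both WT libraries lay below all 4 SETD2KO libraries in 786-O, while SETD2KO-1R replicate 1 lay among them. COL6A2 had 4 and 6, 11 and 7, 13 and 5, and 8 and 4 peaks in 786-O, and 5 and 3, 7 and 9, 7 and 3, and 6 and 10 in RPTEC. COL6A3, named after its values were seen, had 1 peak in each of 2 786-O libraries, WT replicate 2 and SETD2KO-1R replicate 2. In RPTEC it had 0 and 1 in WT, 11 and 14 in clone SETD2KO-1, 3 and 1 in clone SETD2KO-2, and 4 and 2 in SETD2KO-1R. The SETD2KO-1 libraries stood apart from the other 6, and 5 RPTEC regions of COL6A3 were called in both SETD2KO-1 libraries and in no other.

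COL18A1 encodes a multiplexin of basement membranes, the parent protein of endostatin, and had the most peaks of any collagen gene, 293. In 786-O it had 22 and 32 in WT, 23 and 24 in clone SETD2KO-1, 29 and 11 in clone SETD2KO-2, and 24 and 8 in SETD2KO-1R. RPTEC libraries had 16 and 8, 6 and 14, 19 and 5, and 27 and 25 in the same order. The second libraries of SETD2KO-2 and SETD2KO-1R held the fewest in 786-O. Of the 293 peaks 96 overlapped another gene, mostly SLC19A1, which covers its 3′ end. COL7A1, whose product forms the anchoring fibrils beneath stratified epithelium, had 14 and 16, 14 and 12, 16 and 8, and 14 and 3 peaks in 786-O. In RPTEC it had 10 and 4, 6 and 15, 11 and 3, and 16 and 13. COL7A1 is 31.257 kb long, so its 175 peaks lay more closely together than those of the longer COL18A1 (108.556 kb).

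Among fibrillar genes only COL27A1 had a peak in every library. Type XXVII is a fibrillar collagen known from cartilage. It had 20 and 23 peaks in WT, 35 and 27 in clone SETD2KO-1, 37 and 13 in clone SETD2KO-2, and 23 and 13 in SETD2KO-1R of 786-O. RPTEC had 15 and 8, 6 and 22, 15 and 5, and 11 and 6. The mean was 23.875 ± 8.94 in 786-O and 11 ± 5.95 in RPTEC (SD, n = 8 each), a difference of 12.875 peaks with an exact permutation p of 0.00575, and the ranges overlapped. After Benjamini-Hochberg adjustment over 13420 genes p was 0.0813, so the difference did not pass the threshold of 0.05. It passed when bp covered by peaks replaced their number, and when 786-O SETD2KO-2 replicate 2, 786-O SETD2KO-1R replicate 2 or RPTEC SETD2KO-1 replicate 2 was left out. The difference fell to 6.375 peaks in lists cut to an equal number of peaks (exact permutation, adjusted p = 0.238) and to 7.25 with the upper 50% of peaks by score (adjusted p = 0.191). Of the peaks in COL27A1, 24.0% overlapped another gene too.

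COL5A1, the alpha-1 chain of type V collagen that limits the width of collagen fibrils, was singled out after its values were seen. RPTEC WT and SETD2KO-2 libraries had 0 peaks in it, SETD2KO-1 had 11 and 13, and SETD2KO-1R had 15 and 20. In 786-O the WT libraries had 2 and 3 and all others 0. Within RPTEC the gene was called in the knockout clone and in the line made from it, whatever the SETD2 status, and not in the other knockout clone. Peaks covered 4792 and 5259 bp of the gene in the SETD2KO-1 libraries and 7796 and 9471 bp in the SETD2KO-1R libraries. Its best peak stood at the 98.0th to 98.8th percentile of those lists. In 786-O WT the best peak was at the 36.1th and 36.6th percentile, and the 5 peaks there lay in the last part of the gene, where LOC101448202 overlaps it. The RPTEC peaks merged into 25 regions over the length of the gene, of which 5 overlapped another gene. Of these regions, 7 were called in both SETD2KO-1 and both SETD2KO-1R libraries, and 4 of the 7 overlap LOC101448202. The highest-ranking of the 7, chr9:134841901-134842702 near the 3′ end, is one of the 4 and had a mean percentile of 98.3. A region at chr9:134729989-134730300, which overlaps no other gene, had 94.2.

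**Figure D2:**
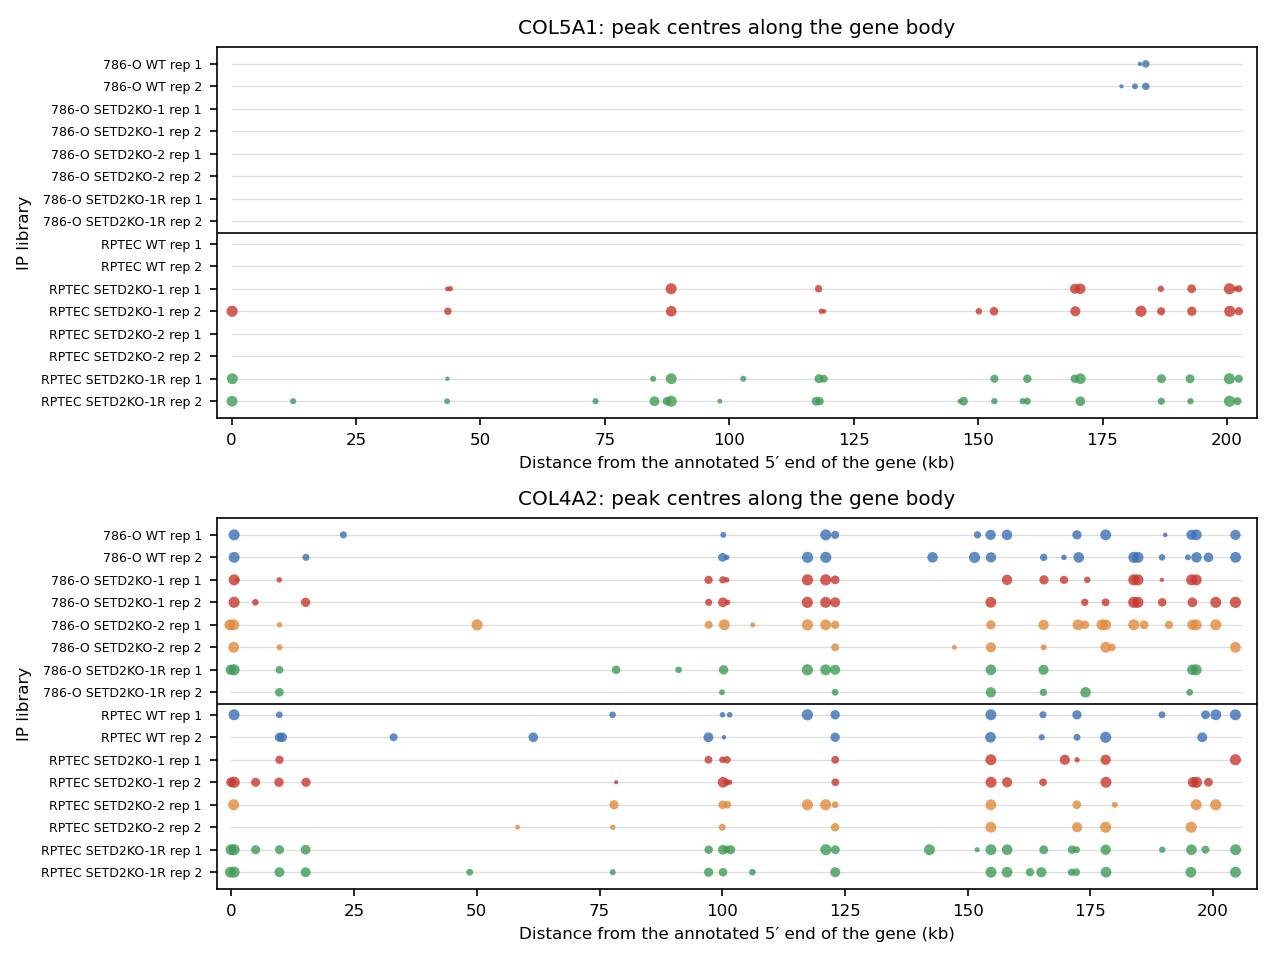
Centres of called peaks along COL5A1 and COL4A2, in kb from the annotated 5′ end of each gene (x axis), for each IP library (y axis). Each point is 1 peak, larger points have a higher score percentile within their list, and colours mark WT (blue), SETD2KO-1 (red), SETD2KO-2 (orange) and SETD2KO-1R (green). COL5A1 has 11, 13, 15 and 20 peaks in the RPTEC SETD2KO-1 and SETD2KO-1R libraries and 2 and 3 in 786-O WT, while COL4A2 has 7 to 23 in every library.

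The other fibrillar chains with a peak, also named after their values were seen, had few. COL1A1, the main chain of type I collagen, had 3 peaks in 786-O WT replicate 2 and 0 in the other 7 786-O libraries. In RPTEC it had 1 and 0 in WT, 2 and 4 in clone SETD2KO-1, 1 and 0 in clone SETD2KO-2, and 2 and 2 in SETD2KO-1R. COL11A2 had 5 peaks, in 3 of the 4 SETD2KO libraries of 786-O, and COL5A2 had 2, in 1 library of each 786-O knockout clone. Neither gene was called in RPTEC.

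COL12A1 encodes a fibril-associated collagen that lies on the surface of type I fibrils, and it had the lowest p of the collagen genes between the cell lines. It had 0 peaks in each of the 8 786-O libraries. In RPTEC it had 4 and 1 in WT, 5 and 4 in clone SETD2KO-1, 3 and 1 in clone SETD2KO-2, and 5 and 3 in SETD2KO-1R. Every RPTEC library lay above every 786-O library, and the SETD2KO and SETD2-expressing libraries of RPTEC had the same mean, 3.25 peaks. Its best RPTEC peak ranged from the 27.5th to the 96.8th percentile, and the libraries with 1 peak, WT replicate 2 and SETD2KO-2 replicate 2, had the lowest. The region chr6:75183274-75183780 was called in all 8 RPTEC libraries at a mean percentile of 30.4 and in no 786-O library. A region further 3′, chr6:75156475-75156772, was called in 6 at a mean of 92.3. None of the 26 peaks overlapped another gene. COL16A1, of the same class, had 6 peaks in RPTEC SETD2KO-1 replicate 2 and 2 and 1 in SETD2KO-2, with 0 in the other 13 libraries. COL9A2 and COL22A1 had 1 peak each, both in RPTEC SETD2KO-1 replicate 1 and both at the 3.77th percentile.

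Of the transmembrane collagens, COL17A1, a component of hemidesmosomes, had 1 peak in each 786-O library and in 7 of 8 RPTEC libraries, with 0 in WT replicate 2. These peaks fell in one place, chr10:104035399-104036084 as merged over 786-O and chr10:104035415-104036109 over RPTEC. COL13A1 had 3 and 2 peaks in WT, 0 and 7 in clone SETD2KO-1, 2 and 0 in clone SETD2KO-2, and 1 and 1 in SETD2KO-1R of RPTEC, and 1 in 786-O WT replicate 2. COL23A1 had a peak in 3 libraries, and COL25A1 in both RPTEC SETD2KO-1R libraries. COL8A1, a short-chain network collagen, had 3 and 11 peaks in WT, 3 and 5 in clone SETD2KO-1, 3 and 7 in clone SETD2KO-2, and 5 and 2 in SETD2KO-1R of 786-O. In RPTEC it had 4 and 5, 2 and 3, 2 and 4, and 6 and 6. The lowest SETD2-expressing library of RPTEC equalled the highest SETD2KO library, at 4 peaks. COL10A1, the hypertrophic cartilage collagen, had 1 peak in RPTEC SETD2KO-1 replicate 2, inside NT5DC1. COL28A1 had 1 in each of 3 786-O libraries, all inside LOC107986764.

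**Figure D3:**
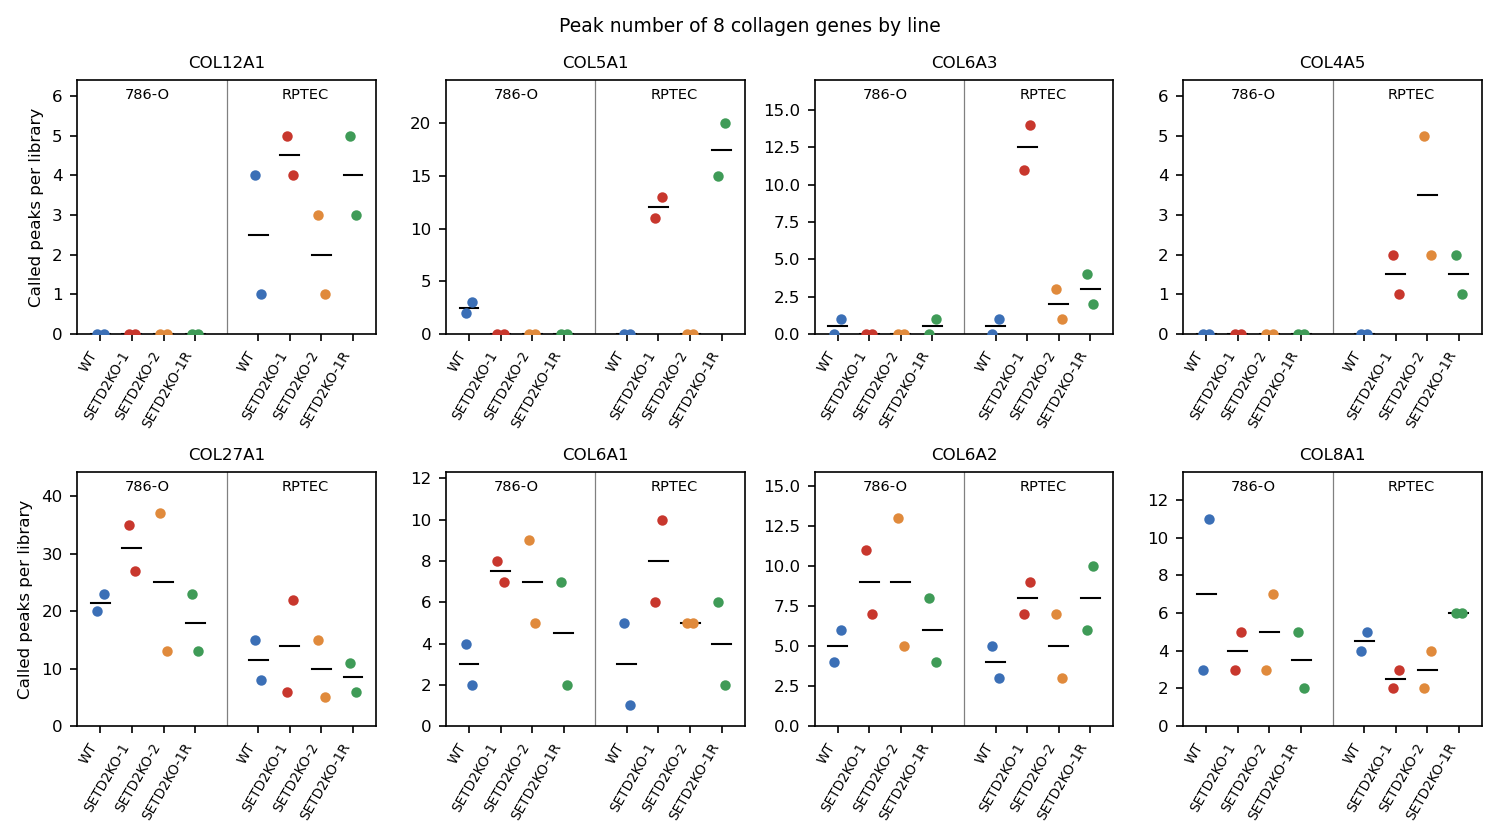
Called peaks per library (y axis) in 8 collagen genes by line (x axis) in 786-O and RPTEC. Points are libraries, 2 per line, and black bars are the means of the 2. COL12A1 is 0 in all 786-O libraries and 1 to 5 in RPTEC, COL6A1 in 786-O WT (4 and 2) lies below the 4 SETD2KO libraries (5 to 9), and COL8A1 in RPTEC is 2 to 4 in SETD2KO and 4 to 6 in SETD2-expressing libraries.

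To compare the cell lines, the peak number of every protein-coding gene with a peak was tested by a two-sided exact permutation test over all ways to place 8 of 16 libraries, with Benjamini-Hochberg adjustment over 13420 genes. COL12A1 was higher in RPTEC by 3.25 peaks per library (exact permutation p = 0.0001554, the smallest the design gives, adjusted p = 0.00831). COL4A3 was higher in 786-O by 0.875 peaks (exact permutation p = 0.00140, adjusted p = 0.0318), with the shared MFF-DT peaks described above. These were 2 of 26 collagen genes tested, 1 in each direction, against 5.36% of all genes (3.44% higher in 786-O and 1.92% higher in RPTEC). Only COL12A1 was called when peaks that overlap another gene were left out. With only the upper 50% of each list by score neither gene passed (Benjamini-Hochberg adjusted p = 0.130 for both, exact permutation test). COL6A3, COL4A5 and COL13A1 had higher means in RPTEC with unadjusted exact permutation p of 0.0073, 0.00699 and 0.0182, and none passed after adjustment (adjusted p = 0.0843, 0.0813 and 0.156). Without RPTEC WT replicate 1, COL6A3 and COL4A5 were called as well. The median difference over the 26 collagen genes was 0.125 peaks in favour of 786-O, beside 0.25 for all genes with a peak. Of the 44, 3 had peaks in 786-O alone (6.82%, against 6.16% of all genes) and 7 in RPTEC alone (15.9%, against 4.94%), of which 5 had them in 1 to 3 libraries.

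The score has no stated scale, so peaks were ranked by it within each list. The median percentile of collagen peaks within a list was 60.8 ± 6.29 in 786-O and 58.4 ± 4.75 in RPTEC libraries (SD, n = 8 each). Of collagen peaks, 17.5% ± 3.89 in 786-O and 17.996% ± 2.35 in RPTEC lay in the top 10% of their list, which holds 10% of all peaks by construction. In 786-O this share was 21.9, 18.6, 20.4 and 21.2% in the SETD2KO libraries and 15.8, 15.7, 16.5 and 10.0% in the SETD2-expressing ones, and the groups did not overlap. In RPTEC the shares were 15.6 to 21.7% and 14.8 to 20.6%, and the groups overlapped. These shares over the family are a description with no test. The best peak of a gene ranked high in COL18A1 (mean percentile 97.9 ± 0.70 in 786-O and 97.4 ± 2.4 in RPTEC), COL4A1 (97.7 ± 1.3 and 97.4 ± 1.9) and COL4A2 (96.8 ± 5.5 and 98.7 ± 0.94). COL8A1 was lower, at 74.8 ± 8.2 and 67.6 ± 10.9. For the 9 collagen genes with a peak in all 16 libraries the rank of the best peak was tested in the same way over 4626 genes. No collagen gene was called, against 1.56% of all genes (1.08% higher in 786-O and 0.476% in RPTEC), and none had an unadjusted exact permutation p under 0.05. The lowest was that of COL27A1 (exact permutation p = 0.0915, adjusted p = 0.396), whose best peak averaged 92.9 ± 4.0 in 786-O and 88.4 ± 5.7 in RPTEC.

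**Figure D4:**
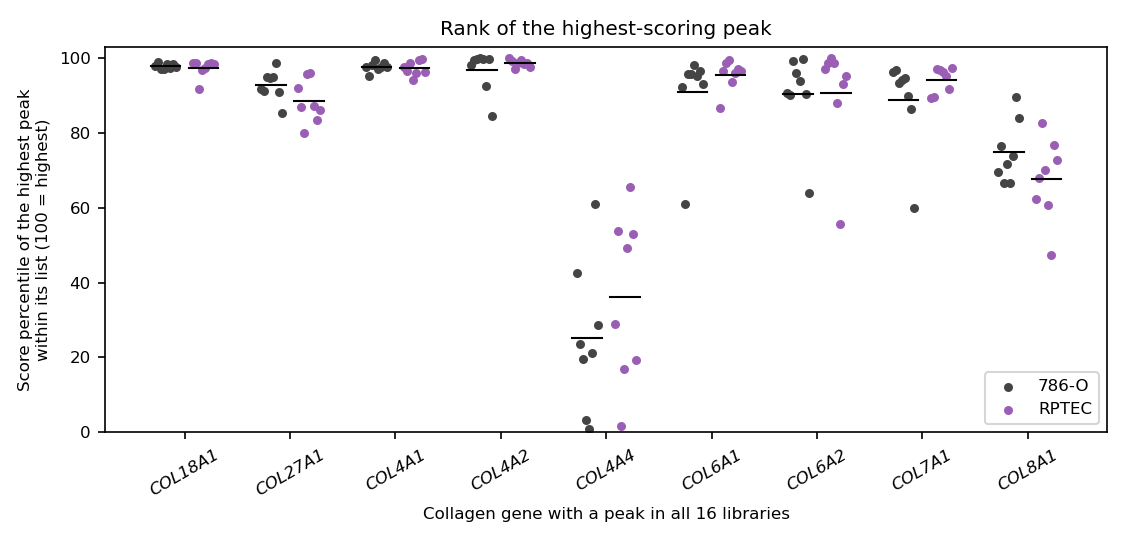
Score percentile within its list (y axis, 100 = highest) of the highest-scoring peak in each of the 9 collagen genes with a peak in all 16 libraries. Points are libraries, 8 per cell line, and black bars are means. The best peaks of COL18A1, COL4A1 and COL4A2 lie at 84.7 or higher in every library, and those of COL4A4 between 0.8 and 65.6.

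Within a cell line the question was whether collagen peak numbers followed SETD2 status. In 786-O no collagen gene of 19 with a peak had all 4 SETD2KO libraries above or below all 4 SETD2-expressing libraries, against 2.42% of 12430 genes (1.52% higher in SETD2KO and 0.901% lower). In RPTEC none of 23 did, against 2.42% of 12185 genes (1.01% higher and 1.41% lower). With 4 libraries a side the exact permutation test cannot give p under 0.0286 and no gene of the table passed after Benjamini-Hochberg adjustment (unadjusted p under 0.05 in 301 genes of 786-O and 295 of RPTEC). COL6A1 in 786-O had 7.25 ± 1.71 peaks in SETD2KO and 3.75 ± 2.36 in SETD2-expressing libraries (SD, n = 4 each), and only SETD2KO-1R replicate 1, at 7, lay within the SETD2KO range. COL8A1 in RPTEC had 2.75 ± 0.96 and 5.25 ± 0.96, and the groups met at 4 peaks. Other groups met only at 0, such as COL11A2 in 786-O (2, 1, 2 and 0 against 0 in all) and COL16A1 in RPTEC (0, 6, 2 and 1 against 0 in all). The unadjusted exact permutation p was not under 0.05 for any collagen gene in either cell line.

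Against WT alone, with 4 SETD2KO and 2 WT libraries and a smallest exact p of 0.0667, 2 of 19 collagen genes did not overlap in 786-O, against 8.64% of all genes (3.49% higher in SETD2KO and 5.15% lower). COL6A1 was higher in SETD2KO (8, 7, 9 and 5 against 4 and 2) and COL5A1 lower (0 in all against 2 and 3). SETD2KO-1R overlapped SETD2KO in both, with 7 and 2 peaks in COL6A1 and 0 and 0 in COL5A1. In RPTEC 1 of 23 did not overlap, against 7.25% (2.91% higher and 4.33% lower). COL4A5 was higher in SETD2KO (2, 1, 5 and 2 against 0 and 0), and SETD2KO-1R had 2 and 1. With lists cut to an equal number of peaks (19249), COL4A5 overlapped (0, 0, 2 and 2 against 0 and 0), and COL6A1 did not (6, 10, 5 and 5 against 4 and 1). COL5A1 was no longer apart in 786-O with such lists. With the full lists none of the 3 genes returned to the WT numbers in both SETD2KO-1R libraries. With lists of equal length COL6A1 in 786-O had 3 and 1 peaks in WT and 8 and 7 in SETD2KO-1. It had 7 and 4 in SETD2KO-2 and 4 and 1 in SETD2KO-1R. COL4A5 in RPTEC had 0 and 0 in SETD2KO-1R with these lists.

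Each clone was also set against WT by itself. SETD2KO-1 alone did not overlap WT for 6 of 19 collagen genes in 786-O, against 20.0% of all genes (9.14% higher and 10.8% lower), and SETD2KO-2 alone for 2, against 17.2% (7.64% higher and 9.58% lower). The genes higher in 786-O SETD2KO-1 were COL4A1, COL6A1, COL6A2, COL11A2 and COL27A1, and COL5A1 was lower. In RPTEC the counts were 8 of 23 for SETD2KO-1, against 17.3% (9.72% higher and 7.53% lower), and 2 for SETD2KO-2, against 16.6% (5.65% higher and 10.9% lower). COL1A1, COL4A5, COL5A1, COL6A1, COL6A2 and COL6A3 were higher in RPTEC SETD2KO-1, and COL4A4 and COL8A1 lower. COL4A5 and COL16A1 were higher in SETD2KO-2. With 2 libraries a side no exact test can give p under 0.333. Whether the clones differ from each other was not tested. COL6A1 and COL6A2 were higher in SETD2KO-1 than in WT in both cell lines, and COL5A1 was lower in 786-O but higher in RPTEC. How many of all genes stood apart in both cell lines was not counted. In SETD2KO-2, COL6A1 lay above WT in 786-O only, and COL6A2 overlapped WT in both cell lines.

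Re-expression of SETD2 was followed by comparing SETD2KO-1R with SETD2KO-1. In 786-O 4 collagen genes did not overlap, against 20.6% of all genes (6.26% higher in SETD2KO-1R and 14.4% lower). COL4A2 (13 and 7 after 18 and 18), COL11A2 (0 and 0 after 2 and 1) and COL27A1 (23 and 13 after 35 and 27) were lower in SETD2KO-1R, and COL28A1 (1 and 1 after 0 and 0) higher. In RPTEC 6 did not overlap, against 18.1% (11.9% higher and 6.15% lower). COL6A3 was lower (4 and 2 after 11 and 14), and COL4A2 (23 and 19 after 10 and 17), COL5A1 (15 and 20 after 11 and 13), COL8A1 (6 and 6 after 2 and 3), COL18A1 (27 and 25 after 6 and 14) and COL25A1 (1 and 1 after 0 and 0) were higher. The RPTEC SETD2KO-1R libraries held 29154 and 31207 peaks in all and the 786-O SETD2KO-1R libraries 32016 and 25710. With lists of equal length, a comparison added after the values were seen, 5 of 15 collagen genes with a peak in those lists did not overlap in 786-O, against 17.0% of all genes, and 5 of 20 in RPTEC, against 14.9%. In 786-O 2 of these were the same, COL27A1 and COL28A1, while COL4A2 overlapped (12 and 6 after 12 and 13). In addition COL6A1 (4 and 1 after 8 and 7) and COL8A1 (2 and 2 after 3 and 3) were lower in SETD2KO-1R. COL4A4 (1 and 1 after 0 and 0) was higher. In RPTEC all 5 were the same, and COL25A1 overlapped (1 and 0 after 0 and 0).

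Whether peak numbers differed by SETD2 status to another extent in 786-O than in RPTEC was tested directly by permuting status within each cell line, 4900 arrangements. No gene of 13420 passed after Benjamini-Hochberg adjustment (0% called), and 3.61% had an unadjusted exact permutation p under 0.05, none of them a collagen gene. The lowest collagen value was that of COL4A2 (exact permutation p = 0.0951). Its SETD2KO libraries averaged 16.75 ± 5.50 and its SETD2-expressing libraries 13.25 ± 4.92 in 786-O, and 11.75 ± 3.86 and 17.0 ± 4.97 in RPTEC (SD, n = 4 each).

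**Figure D5:**
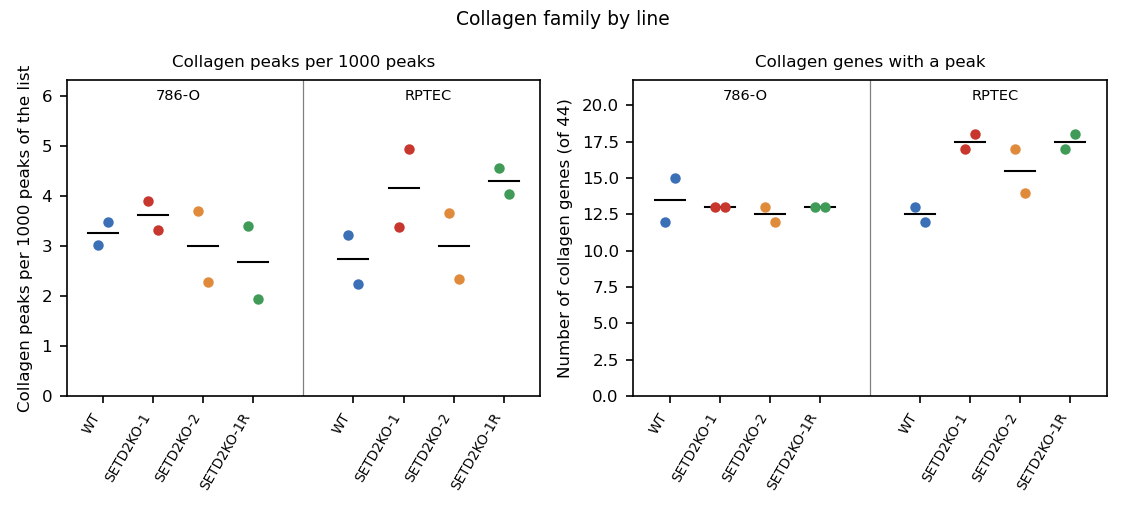
Left, peaks in collagen genes per 1000 peaks of a list (y axis), and right, the number of the 44 collagen genes with a peak (y axis), by line in 786-O and RPTEC (x axes). Points are libraries, 2 per line, and black bars are their means. In the left panel values run from 1.94 to 3.91 in 786-O and from 2.25 to 4.93 in RPTEC, and in the right panel the RPTEC SETD2KO-1 and SETD2KO-1R libraries reach 17 and 18 genes against 12 and 13 in RPTEC WT.

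Counted over the family, collagen genes held 3.13 ± 0.688 of every 1000 peaks in 786-O and 3.55 ± 0.962 in RPTEC (SD, n = 8 each), with ranges of 1.94 to 3.91 and 2.25 to 4.93. In 786-O the SETD2KO libraries had 3.30 ± 0.725 and the SETD2-expressing libraries 2.96 ± 0.710 (SD, n = 4 each). RPTEC had 3.57 ± 1.07 and 3.52 ± 1.01. In all of these the difference of the means was smaller than the spread between libraries. Within lines, libraries with fewer peaks in all had a smaller share in 6 of the 8 lines. The number of collagen genes with a peak was 12 to 15 in 786-O. In RPTEC it was 12 and 13 in WT, 17 and 18 in clone SETD2KO-1, 14 and 17 in clone SETD2KO-2, and 17 and 18 in SETD2KO-1R. Of all protein-coding genes, 9237 and 8428 had a peak in RPTEC WT replicates 1 and 2, and 8957 and 9446 in SETD2KO-1. The numbers were 9180 and 7739 in SETD2KO-2, and 9394 and 9670 in SETD2KO-1R.

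Overlapping peaks were merged over the 8 libraries per cell line, which gave 245 regions in collagen genes of 786-O and 282 of RPTEC. All 8 libraries called 22 of the 245 (8.98%, against 9.70% of all 786-O regions) and 15 of the 282 (5.32%, against 8.18% in RPTEC). A single library called 37.6% and 42.6%, against 39.4% and 41.6% of all regions. Every 786-O region called in all 8 libraries was also called in at least 1 RPTEC library, and 7 of the 22 in all 8. Of all 7654 such 786-O regions, 55.0% were called in all 8 RPTEC libraries and 2.23% in none. Of the 15 RPTEC regions 7 were called in all 8 786-O libraries and 1, in COL12A1, in none. Of all 5597 such RPTEC regions, 74.5% were called in all 8 786-O libraries and 2.70% in none. Among regions called in all 8 libraries, those of highest mean percentile in 786-O were chr13:110150359-110150710 in COL4A1 (97.7), chr21:45511647-45512547 in COL18A1 and SLC19A1 (95.2) and chr13:110213957-110214341 in COL4A1 (93.4). The first and second lie 99.01% and 98.5% of the way from the annotated 5′ to the 3′ end of their collagen gene, and the other at 58.8%. In RPTEC they were chr21:45511920-45512457 in COL18A1 and SLC19A1 (96.99), chr21:45991750-45992796 in COL6A1 (94.2) and chr13:110461707-110462174 in COL4A2 and its antisense gene COL4A2-AS2 (94.0). No exon models were used, so whether a region is exonic, intronic or in an untranslated region is not given here.

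A single collagen region, in RPTEC only, followed SETD2 status in full. The region chr9:114181018-114181518 in COL27A1 was called in every one of the 4 SETD2KO libraries of RPTEC and in 0 of the 4 SETD2-expressing ones, 17.2% of the way along the gene, at percentiles from 1.26 to 43.6. That is 1 of 282 collagen regions, near the 0.263% of all RPTEC regions called in this way. The 786-O region over the same place, chr9:114180871-114181483, was called in 5 libraries, 1 of them WT and 1 SETD2KO-1R. No collagen region of RPTEC went the other way (0.212% of all regions did), and none of the 245 in 786-O followed status in either direction, against 0.475% called in SETD2KO libraries only and 0.147% in SETD2-expressing libraries only.

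Along the gene body, 35.5% of 1437 collagen peaks with a known strand had their centre in the last 20% of the gene, against 32.7% of 354962 peaks in all protein-coding genes with a strand. The first 20% held 13.5%, against 21.0%. Members differed: all 15 COL17A1 peaks and 82.6% of the 23 COL4A4 peaks lay in the last 20%, against 22.4% of 125 in COL4A1 and none of the 9 in COL4A3. COL12A1 had 36.0% of 25 in the first 20%. Peaks of overlapping genes are included in these shares, such as those shared with SLC19A1 at the end of COL18A1, and their part was not tested.

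Collagen chains are hydroxylated, folded, trimmed and crosslinked by dedicated enzymes, bound by integrins and discoidin domain receptors, and degraded by metalloproteinases. Of 52 such genes 40 had a peak in some library, beside 67.0% of all protein-coding genes. In 786-O 34 had one, beside 12430 of all 20037 genes, and in RPTEC 38, beside 12185. After Benjamini-Hochberg adjustment 7 of the 40 differed between the cell lines, 4 higher in 786-O and 3 in RPTEC, against 5.36% of all genes (3.44% and 1.92%). P3H1, a prolyl 3-hydroxylase, had 2 to 6 peaks in 786-O (median 3) and 0 to 3 in RPTEC (median 1; exact permutation, adjusted p = 0.0470), and the collagen galactosyltransferase COLGALT1 had 2 to 6 (median 3.5) and 0 to 3 (median 1.5; adjusted p = 0.0493). Among procollagen N-proteinases, ADAMTS3 (exact permutation; 5 to 11, median 7.5, against 1 to 5, median 3; adjusted p = 0.0187) and ADAMTS2 (0 to 5, median 1, against 0 in all RPTEC libraries; adjusted p = 0.0318) were higher in 786-O too. ADAMTS14, the other one listed, had 0 peaks in 786-O and 0 to 6 in RPTEC (median 1; exact permutation, adjusted p = 0.0813). Of 5 crosslinking oxidases 2 were higher in RPTEC. LOX had 0 peaks in 786-O and 1 in 7 of 8 RPTEC libraries (exact permutation, adjusted p = 0.0318), and LOXL1 had a peak in 1 786-O library and 1 to 4 in RPTEC (median 2; adjusted p = 0.0148). LOXL2, LOXL3 and LOXL4 did not pass, with means of 12.6, 0.875 and 0.125 in 786-O and 13.4, 0.5 and 0.125 in RPTEC. MMP2, a gelatinase, had a peak in 1 786-O library and 1 to 4 in RPTEC (median 3.5; exact permutation, adjusted p = 0.0187). For all 7 the ranges of the cell lines met or overlapped. In 786-O 1 of the 34, PLOD1, a lysyl hydroxylase, had all SETD2KO libraries above all SETD2-expressing ones, against 1.52% of all genes, and in RPTEC none did, against 1.01%. Of the markers of other cell types, PDGFRB (fibroblasts) lay higher in all RPTEC SETD2KO libraries, at a mean of 1.25 against 0 peaks. CDH5 (endothelium) lay lower in all of them, at 0 against 1. Over all genes 1.01% lay higher in this way and 1.41% lower. For the fibroblast markers LUM and PDGFRA the groups overlapped. DCN, PECAM1, VWF and PTPRC had no peak in any library. The leukocyte marker CD68 had a peak in 8 786-O and 7 RPTEC libraries, the fibroblast marker LUM in 1 and 5, PDGFRA in 0 and 2, and PDGFRB in 5 and 4.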

How the data were processed

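MeRIP-seq peak lists of 16 IP libraries were used. Per the submitters' processing notes, which name STAR, HTSeq, MACS2 and hg38, the authors aligned reads and called peaks, and the E. coli RNA spike-in they describe leaves no column in the lists. The lists as deposited by the authors give a score per peak with no stated scale and 3 further columns of peak values that are 0, so scores were turned into percentiles within a list. Without read counts no count model was possible. The paper states only a lower limit of reads per sample, and the depth of each library is unknown. How the deposited lists were filtered could change every peak number given here. Input libraries were not analysed here.

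Peaks were assigned to each protein-coding gene of the GRCh38.p14 RefSeq table that they overlapped by at least 1 bp. Peak number and best-peak percentile were compared by two-sided exact permutation tests over libraries, with Benjamini-Hochberg adjustment over all genes tested and a threshold of 0.05. Status, WT and re-expression comparisons within a cell line were described by whether groups overlapped. Values in every library were given for the 12 genes with a peak in all 8 libraries of a cell line or past the adjusted threshold, and regions were named where all 8 libraries called them (the 3 of highest mean percentile per cell line) or where calls followed status in full. The genes, lists and rules were chosen with earlier results of these data known. Alternatives were the upper 50% of each list, lists cut to an equal number of peaks (19249), peaks in no other gene, peak midpoints, bp covered, lines as units, chromosomes 8 and 9 left out, each clone alone, each library left out, and a replicate block. 1 gene of the marker lists is not reported here. The tests were checked on simulated data in which all libraries were independent. That check does not cover libraries that share a line, as they do here. Tables were handled in pandas 2.3.3 and NumPy 2.4.6 under Python 3.11.15, with tests in SciPy 1.17.1 and plots in Matplotlib 3.10.9.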

Additional observations from a re-analysis of the deposited data

Results flagged for a closer look

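In groups of 4 libraries of the same SETD2 status, a library was picked out where its gap to the nearest other, divided by the range, was above Dixon's 95% critical value. Of 48 groups 6 held such a library, where chance would mark about 1 in 20 groups, and small whole numbers reach the limit easily. In COL7A1, 786-O SETD2KO-1R replicate 2 had 3 peaks and the nearest SETD2-expressing library 14, a ratio of 0.846. That library also had the smallest 786-O list, 25710 peaks, and the part of list size was not tested. COL17A1 had 0 peaks in RPTEC WT replicate 2 and 1 in the other SETD2-expressing libraries. COL4A4 had 2 peaks in 786-O SETD2KO-1 replicate 2 and in RPTEC SETD2KO-2 replicate 2, against 1 in the other SETD2KO libraries of each cell line. COL4A3 had 1 peak in RPTEC SETD2KO-2 replicate 1 and 0 in the others. In 786-O SETD2KO-2 replicate 2, 12 collagen genes had a peak, against 13 in the other SETD2KO libraries.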

How the results depend on the processing

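The 2 genes called between the cell lines, COL12A1 and COL4A3, became 0 with the upper 50% of each list and 1 (COL12A1) with lists of equal length (19249 peaks) and with peaks in no other gene. With lines as units the count was 0, but 4 lines a side cannot give an exact p under 0.0286, the lowest adjusted p of any gene was 0.282, and this says nothing about stability. Leaving out 1 library gave 2 to 4, with 4 without RPTEC WT replicate 1. No rank or status by cell line call appeared under any setting. Differences of 786-O minus RPTEC changed sign for COL17A1 (-0.125) and COL6A1 (-0.5) in the upper 50% and in lists of equal length, and in the latter for COL8A1 (-0.625) and COL4A2 (-0.875). They also did for COL4A2 without 786-O SETD2KO-2 replicate 1 (-0.375) or RPTEC SETD2KO-2 replicate 2 (-0.286), COL6A1 without RPTEC WT replicate 2 (-0.0714) and COL4A4 without RPTEC WT replicate 1 (0.0893). With 1 library left out these ranged from -0.375 to 1.86 for COL4A2, -0.0714 to 1.21 for COL6A1 and -0.214 to 0.0893 for COL4A4. The cause was not tested. The replicate numbers did not pair the libraries (correlations of deviations from -0.359 to 0.380). With them as a replicate block, the genes whose SETD2KO and SETD2-expressing libraries did not overlap became 1 in 786-O (COL6A1, higher; 3.23% of all genes) and 1 in RPTEC (COL8A1, lower; 3.36%), from 0 in each (2.42% and 2.42%), and those of RPTEC SETD2KO against WT became 2 (9.94%) from 1 (7.25%). For status in RPTEC the count was also 1 (COL8A1) with the upper 50% (1.42% of all genes) and with bp covered (4.67%). Leaving out 1 library gave 0 to 2 in 786-O, where 3.27% to 4.57% of all genes did not overlap (2, COL11A2 and COL27A1, without SETD2KO-2 replicate 2, and 1, COL6A1, without SETD2KO-1R replicate 1). It gave 0 to 1 in RPTEC, against 3.32% to 4.37% (COL8A1 without WT replicate 1 or SETD2KO-2 replicate 2, and COL16A1 without SETD2KO-1 replicate 1). For SETD2KO against WT in 786-O, the count of 2 (8.64% of all genes) became 1 (COL6A1) with the upper 50% (6.17%), lists of equal length (6.54%), peaks in no other gene (8.32%) or without chromosomes 8 and 9 (8.67%), 6 with SETD2KO-1 alone (20.0%), and 2 to 7 with 1 library left out (11.3% to 22.5%; 7 without WT replicate 1, with 22.5%, and 6 without SETD2KO-2 replicate 2, with 13.2%). In RPTEC the count of 1 stayed 1 in lists of equal length (6.31%) but was COL6A1 in place of COL4A5, and became 2 with the upper 50% (4.89%), 5 with bp covered (13.3%), 8 with SETD2KO-1 alone (17.3%), 2 with SETD2KO-2 alone (16.6%), and 1 to 5 with 1 library left out (9.61% to 19.0%). These were 5 without SETD2KO-2 replicate 2 (11.4%), 4 without WT replicate 1 (19.0%), 3 without WT replicate 2 (19.0%) and 2 without SETD2KO-1 replicate 1 (9.67%). The collagen share per 1000 peaks differed by -0.41 between the cell lines (-0.599 to -0.216 with 1 library left out). SETD2KO minus SETD2-expressing gave 0.341 in 786-O (0.00118 to 0.682) and 0.0547 in RPTEC (-0.398 to 0.467). With 2 libraries per line and no read counts, a missing call may reflect depth.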
